A study of Rattus norvegicus with 4 samples.

Results

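The gene Ash1l (ENSRNOG00000020386) hosted 16 of the 4942 circular RNAs (circRNAs) listed for rat sciatic nerve, more than any other of the 2327 host genes. Its circRNAs were taken as every listed circRNA with the host symbol Ash1l, and Ash1l was chosen by that number, which was counted from the measured junction reads and is given here as a description. The next hosts by this count were Picalm and Evi5, with 14 circRNAs each. Sciatic nerves were taken from Sprague-Dawley rats in postnatal week 6 for total RNA, in 2 libraries of crushed nerve and 2 from a sham operation that only exposed the nerve. The injury was a crush over 3 mm, applied 2 times for 15 s with a pause of 3 s, and that stretch was collected with 1 mm of nerve on either side. Both groups were sampled 24 h after surgery. Whether the replicates are different animals is not in the labels, so a p-value here reflects the spread between libraries, which could be technical.

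ASH1L is a large nuclear protein of the trithorax group. Its SET domain methylates a lysine in the tail of histone H3, and this mark of transcribed chromatin opposes silencing by Polycomb complexes. A circRNA forms when the spliceosome joins the end of a downstream exon back to the start of an upstream one, and the count of reads across that back-splice junction is the measure of its abundance. One gene can yield many circRNAs when several exon starts and ends take part, and long introns with inverted repeats around the joined exons are known to favour the reaction.

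The 4 libraries held 8250 and 9027 junction reads in crush nerve (replicates 1 and 2) and 9018 and 8726 in sham nerve, in 1785, 2022, 1704 and 1711 circRNAs. Counts in the files were either 0 or 2 and more, and a 0 can therefore hide a read. Positions are given on Rnor_6.0 as deposited, with no stated base convention. Lengths are differences of listed positions, called spans, and they include introns. Marker genes of other cell types differed in their summed circRNA reads between the groups. The 24 leukocyte markers, of which 14 were detected, summed to 93 and 99 junction reads in crush nerve and 5 and 3 in sham nerve, with Itgb2, Csf1r, S100a8 and S100a9 at 0 in all libraries. The 16 muscle markers, of which 5 were detected, summed to 76 and 84 reads in crush nerve and 207 and 235 in sham nerve, most of them from Mlip (76, 79, 204 and 226), with Ttn, Ckm and Actn2 at 0. The 16 markers of fibroblasts, perineurium and vessels, of which 4 were detected, summed to 8 and 10 in crush nerve and 14 and 17 in sham nerve. Flt1, the vessel marker with the most of these reads, went the other way, with 8 and 8 in crush nerve and 4 and 4 in sham nerve, and Lama2 had 0 and 2 against 7 and 8. Of 18 Schwann cell markers only 3 were detected, with 2 and 0 reads in crush nerve and 3 and 9 in sham nerve, and Sox10, Egr2 and Prx were at 0, so the labelled tissue could not be checked by its main cell type in circRNA data. These are reads of circRNAs and not of the marker messenger RNAs. The part of these shifts in the Ash1l values was not tested, and in whole tissue fewer cells of a type and less RNA per cell cannot be told apart.

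The circRNAs of Ash1l lay on the plus strand of chromosome 2, between 188266536 and 188387007, a stretch of 120471 bases. On this strand the listed start is the upstream side of the back-splice and the listed end the downstream side. They are named here by letter in the order of their starts and then of their ends, from circAsh1l-A to circAsh1l-P. The files classed 13 as exonic and 3 as intronic (A, B and H), and the 3 intronic ones held 7 of the 247 junction reads. No circRNA of another host lay nearby, the closest being one of Clk2, 92025 bases downstream.

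**Figure D1:**
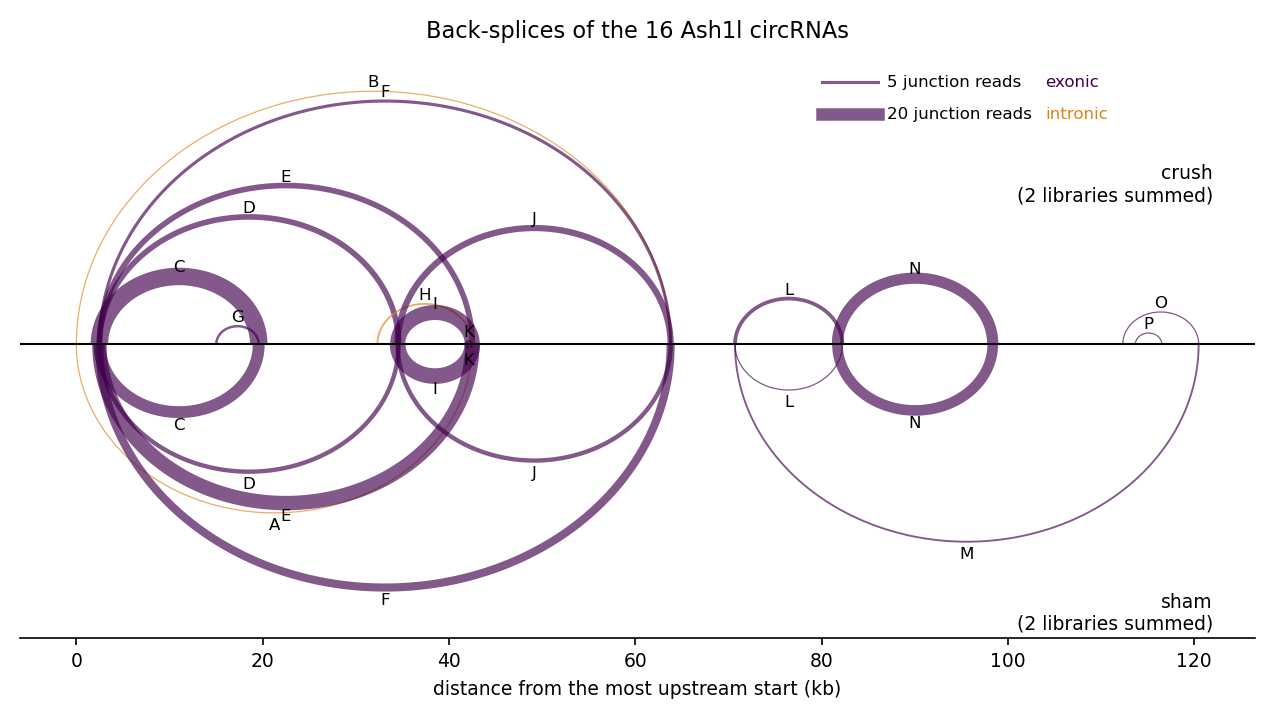
Each arc joins the start and the end of a back-splice of Ash1l, with the horizontal axis in kilobases from the most upstream start and the line width growing with the junction reads of 2 libraries, summed for crush above the line and for sham below it. Arcs are purple for exonic and orange for intronic circRNAs. The arcs fall into an upstream block of 11 circRNAs and a downstream block of 5, and no arc crosses the gap between them.

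The 16 circRNAs used only 10 starts and 8 ends, and the same few sites recurred in different pairings. An end was shared with another circRNA of the gene by 14 of the 16, where 10 shared a start, 12 an end and 8 both. Only circAsh1l-N and circAsh1l-P shared neither, and they held 37 reads. In hosts with at least 2 circRNAs, 64.3% of circRNAs shared a start or an end, against 87.5% in Ash1l. The share was 92.9% in Picalm and in Evi5 and 92.3% in Atrnl1, and lower than in Ash1l in Agtpbp1 (83.3%), Utrn (76.9%) and Dennd4a (69.2%), so Ash1l lay within the range of hosts with nearly as many circRNAs. Allowing ends to differ by 5 bases left the 14 as they were.

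The start with the most reads, at 188269009, was joined to 4 different ends, giving circAsh1l-C, -D, -E and -F. These had 113 reads, 45.7% of the host's, with 23 and 28 reads in crush nerve and 28 and 34 in sham nerve. The end at 188309036 was the busiest on the other side. It was joined to 5 starts (circAsh1l-A, -E, -H, -I and -K) and had 93 reads, 37.7% of the host's, with 21 and 19 in crush nerve and 33 and 20 in sham nerve. The start at 188301023 (circAsh1l-I and -J) followed with 66 reads, then the end at 188286112 (circAsh1l-C and -G) with 51. The start with the fewest reads among the shared ones, at 188266536, lay 2473 bases upstream of the main start and gave the intronic circAsh1l-A and -B, with 2 reads each.

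The back-splices formed 2 separate blocks. The upstream block spanned 63794 bases, from 188266536 to 188330330, with 11 circRNAs and 197 reads, 79.8% of the total. The downstream block spanned 49769 bases, from 188337238 to 188387007, with 5 circRNAs and 50 reads. Its part of the host's reads was 19.0% and 25.0% in crush nerve and 20.3% and 15.8% in sham nerve, so the groups overlapped. The 6908 bases between the blocks lay inside no listed circRNA. The stretch inside most circRNAs was the 101 bases from 188301023 to 188301124, which lay between the ends of 8 of the 16, with 56.3% of the reads. The 735 bases from 188308301 to 188309036 also lay between the ends of 8, with 52.6%. Whether a circRNA keeps every exon between its ends is not measured by junction reads.

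In the upstream block, 5 exonic circRNAs were called in every library. The most abundant circRNA of the gene was circAsh1l-I (188301023 to 188309036, a span of 8013 bases), with 11 and 13 reads in crush nerve and 15 and 10 in sham nerve. Its 49 reads made up 19.8% of the host's, and the crush values lay inside the sham range. circAsh1l-C (188269009 to 188286112, 17103 bases) came next, with 12 and 16 reads in crush nerve and 6 and 13 in sham nerve. Sham replicate 1 was the low library here, and the other 3 lay close together. circAsh1l-E (188269009 to 188309036, 40027 bases) joined the main start to the main end, and had 3 and 6 reads in crush nerve and 15 and 8 in sham nerve. Both sham libraries were above both crush libraries, and sham replicate 1 held 15 of its 32 reads. circAsh1l-F (188269009 to 188330330, 61321 bases) had 3 and 2 reads in crush nerve and 4 and 9 in sham nerve, also with no overlap of the groups but with a gap of a single read. How often circRNAs of other hosts separate the groups is not given here, so these 2 separations are descriptions only. circAsh1l-D (188269009 to 188301124, 32115 bases) was even, with 5 and 4 reads in crush nerve and 3 and 4 in sham nerve.

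The other members of the upstream block were called less regularly. circAsh1l-J (188301023 to 188330330, 29307 bases) had 0 and 10 reads in crush nerve and 5 and 2 in sham nerve, so the crush libraries were its lowest and its highest. circAsh1l-K (188308301 to 188309036), with the shortest span of the 16 at 735 bases, was called in replicate 1 of both groups, with 4 reads in crush nerve and 3 in sham nerve. Both circAsh1l-G (188281555 to 188286112, 4557 bases, 4 reads) and the intronic circAsh1l-H (188298849 to 188309036, 10187 bases, 3 reads) were seen in crush replicate 1 alone. The intronic circAsh1l-A (188266536 to 188309036, 42500 bases) had 2 reads in sham replicate 2 alone. The intronic circAsh1l-B (188266536 to 188330330), with the longest span at 63794 bases, had 2 reads in crush replicate 1 alone.

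In the downstream block, circAsh1l-N (188348239 to 188364907, 16668 bases) was the one circRNA called in every library, with 11 and 7 reads in crush nerve and 10 and 7 in sham nerve. Its replicates differed more than its groups, and it shared no end with another circRNA. circAsh1l-L (188337238 to 188348762, 11524 bases) had 6 reads in crush replicate 2 and 2 in sham replicate 2, and 0 in replicate 1 of both groups. Of the remaining ones, circAsh1l-M (188337238 to 188387007, 49769 bases) had 3 reads in sham replicate 1. Both circAsh1l-O (188378866 to 188387007, 8141 bases) and circAsh1l-P (188380215 to 188383054, 2839 bases) had 2 reads in crush replicate 2. These last 3 were at 0 elsewhere.

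**Figure D2:**
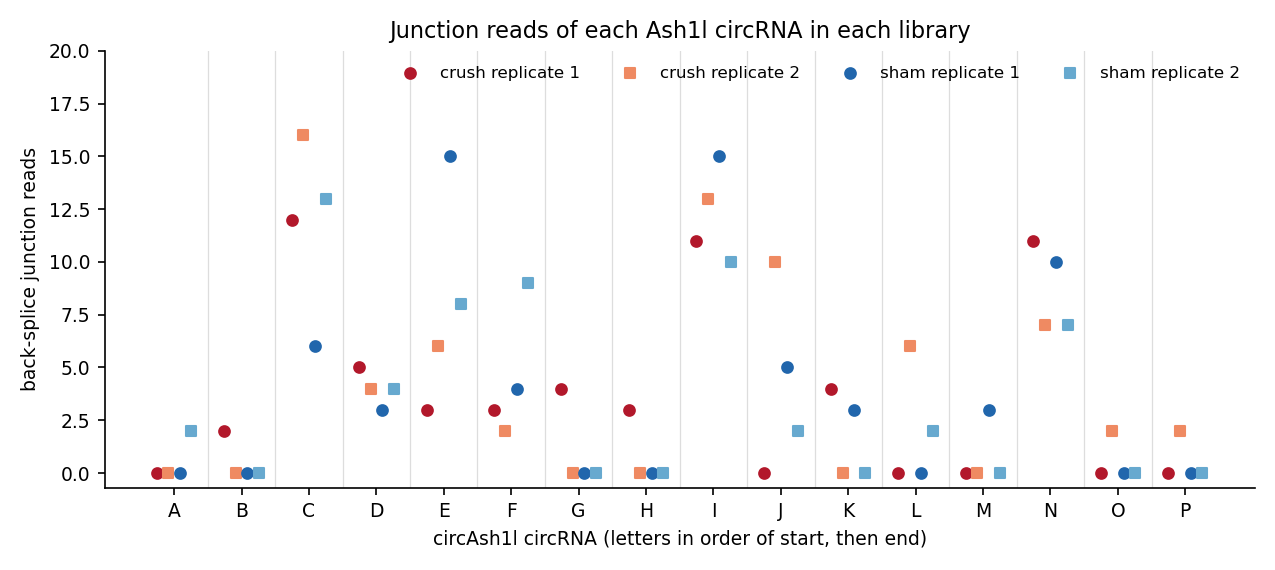
Back-splice junction reads (vertical axis) of each of the 16 Ash1l circRNAs (horizontal axis, by letter) in each of the 4 libraries, with crush in reds and sham in blues. The points of C, D, E, F, I and N lie above 0 in every library, and the most reads in any library were the 16 of C in crush replicate 2.

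A core of 6 circRNAs recurred in every library, with rarer ones around it. Those 6 (C, D, E, F, I and N) held 197 of the 247 reads, 79.8%. A single circRNA was called in 3 libraries, 2 were called in 2 and 7 in 1, and those 7 held only 18 reads. Over the whole series 6.13% of circRNAs were called in all 4 libraries and 72.6% in 1, against 37.5% and 43.8% in Ash1l, and circRNAs called in all 4 held 40.9% of all junction reads. The number of Ash1l circRNAs called was 10 and 10 in crush nerve and 9 and 9 in sham nerve (exact permutation test, two-sided, p = 0.333, the smallest that 2 libraries against 2 can give, 1 after adjustment over 3 measures). With at least 5 reads required, the numbers were 4 and 6 in crush nerve and 5 and 5 in sham nerve. Crush alone had 5 circRNAs and sham alone 2, and 9 were called in both groups. None was called in both libraries of one group and in neither of the other.

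Ash1l also stood first under stricter counts, which hold part of the same information as the count that selected it. It had 9 circRNAs called in at least 2 libraries, ahead of Rere with 8, and 8 with at least 5 reads in some library, ahead of Arhgap10 with 6. It had 6 called in all 4 libraries, ahead of Ttc3 with 4. By total reads it was the 6th host. Hosts with nearly as many circRNAs had fewer reads, such as Picalm with 80, Evi5 with 63 and Utrn with 40, and Picalm, Evi5 and Utrn had no circRNA called in all 4 libraries. Picalm encodes a clathrin assembly protein, and Utrn the dystrophin relative utrophin.

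Reads of Ash1l were spread over many circRNAs with no dominant one. Its top circRNA held 19.8% of its reads, the lowest share among the 37 hosts with at least 100 reads, where the median was 70.2%. Atrnl1 (25.0%) and Rere (26.9%), a gene of a nuclear receptor corepressor, came next. The 37 hosts had a median of 5 circRNAs, so the rank of Ash1l is tied to the count that selected it. Among hosts with fewer than 100 reads, Picalm (16.25%) and Utrn (17.5%) had lower top shares than Ash1l. The effective number of circRNAs, the inverse of the sum of their squared read shares, was 7.73 in Ash1l, the highest of the 37. Over hosts of any depth Ash1l ranked 5, below such hosts as Utrn (10.3), Picalm (9.91) and Evi5 (8.65). The effective number per library was 7.10 and 6.86 in crush nerve and 6.26 and 6.62 in sham nerve. circAsh1l-I took 19.0% and 19.1% of the host's reads in crush nerve and 23.4% and 17.5% in sham nerve, with the crush values inside the sham range (exact permutation test, two-sided, p = 1, 1 after adjustment over 3 measures). In sham replicate 1 it shared the top with circAsh1l-E at 15 reads each. In the other 3 libraries circAsh1l-C was on top, with 20.7% and 23.5% of the host's reads in crush nerve and 22.8% in sham replicate 2, against 9.38% in sham replicate 1.

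**Figure D3:**
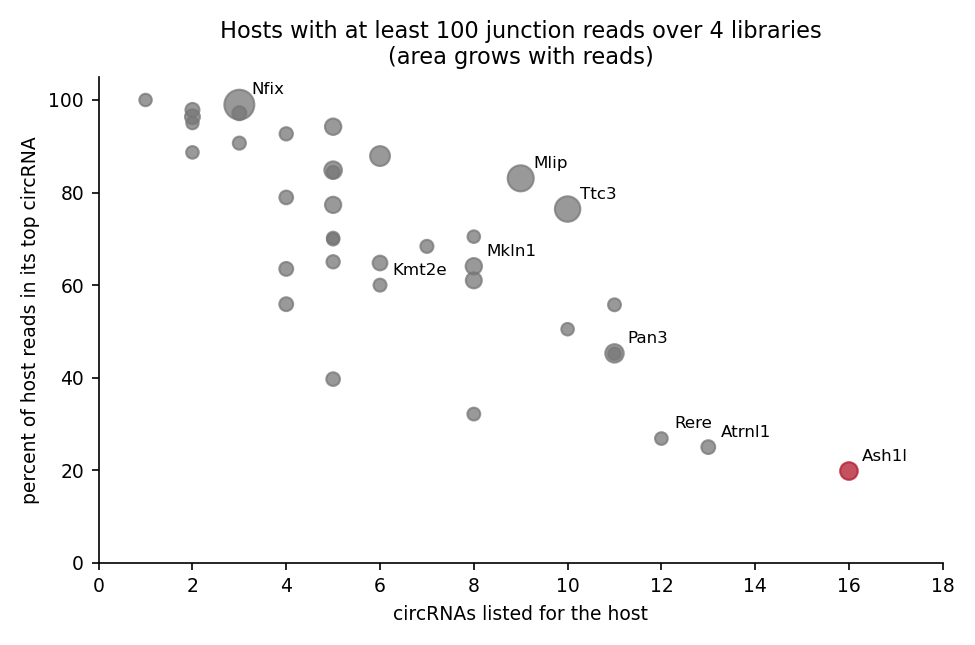
Each point is 1 of the 37 hosts with at least 100 junction reads over the 4 libraries. The horizontal axis is the number of circRNAs listed for the host, the vertical axis the percent of its reads in its most abundant circRNA, and the area of a point grows with its reads. Ash1l, in red, lies at the lower right with 16 circRNAs and 19.8%, beyond Atrnl1 with 13 and 25.0%, while Nfix and Mlip lie near the top.

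As a host, Ash1l gave nearly the same number of junction reads in all 4 libraries. It had 58 and 68 reads in crush nerve and 64 and 57 in sham nerve. These were 0.703% (95% exact Clopper-Pearson interval 0.534% to 0.908%) and 0.753% (0.585% to 0.954%) of all junction reads in crush nerve, and 0.710% (0.547% to 0.905%) and 0.653% (0.495% to 0.846%) in sham nerve. The groups overlapped, with means of 0.728% ± 0.036 in crush nerve and 0.681% ± 0.040 in sham nerve (SD, n = 2; exact permutation test, two-sided, p = 0.667, 1 after adjustment over 3 measures). In the deposited SRPBM, which scales junction reads to a library total, the host had 4.21 and 4.07 in crush nerve and 4.66 and 4.48 in sham nerve, or 4.14 ± 0.10 against 4.57 ± 0.13 (SD, n = 2). On that scale both crush libraries were below both sham libraries. On the TMM-scaled log2 CPM of the test the order was the reverse, with 13.73 and 13.83 in crush nerve above 13.54 and 13.50 in sham nerve.

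No change of the Ash1l host sum passed the test. The log2 change was 0.27 ± 0.30 (SE) on the TMM scale, with a 95% interval of the fold from 0.728 to 1.99 and adjusted p = 0.628 (edgeR quasi-likelihood test over 434 hosts). Over those hosts 10 passed (2.3%), 8 as higher (1.84%) and 2 as lower (0.461%), and the median log2 change was 0.11. Library totals taken from SRPBM moved that median to -0.30 and turned the change of Ash1l to -0.14 (adjusted p = 0.799, edgeR), so its direction depends on the scaling. The steadiness of the host sum is a description, since no test shows that values are equal. Among the 14 hosts with at least 20 reads in every library, the highest and the lowest log2 CPM of Ash1l differed by 0.34. That was the smallest range after the 0.22 of Mkln1, and the median range was 0.85. Ash1l was the 6th host by total reads, and whether the range is tied to read depth was not tested. On the log2 CPM scale 11 of the 14 hosts, Ash1l included, did not overlap between the groups. The 2.3% called by the host test is another measure, taken over 434 hosts, and overlap over all 434 was not counted. Groups of 2 libraries that do not overlap give an exact permutation p (two-sided) of 0.333, so separation alone is weak evidence.

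By distance between centred log2 CPM over the 4 libraries, the hosts with the pattern nearest to Ash1l among those 14 were Mkln1 (0.24), Hipk3 (0.30), Rab11a (0.39) and Atrnl1 (0.56). Mkln1, the gene of muskelin, a subunit of a ubiquitin ligase complex, had 43 and 54 reads in crush nerve and 60 and 49 in sham nerve. Hipk3, a protein kinase gene and a widely reported circRNA host, had 24 and 36 in crush nerve and 28 and 30 in sham nerve. Rab11a, the gene of a GTPase of recycling endosomes, had 49 and 42 in crush nerve and 40 and 34 in sham nerve. Atrnl1 had 39 and 42 reads in crush nerve and 25 and 30 in sham nerve. The reads of Mkln1 and Hipk3 overlapped between the groups, and those of Rab11a and Atrnl1 did not. The distances rest on 4 libraries and carry no test.

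Other hosts with at least 12 circRNAs had fitted changes of both signs. Picalm, with 23 and 36 reads in crush nerve and 12 and 9 in sham nerve, had a log2 change of 1.69 ± 0.48 (adjusted p = 0.0836, edgeR). Dennd4a, with 30 and 26 in crush nerve and 14 and 16 in sham nerve, had a log2 change of 1.11 ± 0.45 (adjusted p = 0.189, edgeR). Utrn, with 4 and 9 in crush nerve and 11 and 16 in sham nerve, had a log2 change of -0.85 ± 0.63 (adjusted p = 0.432, edgeR). Evi5 (24 and 17 reads in crush nerve, 9 and 13 in sham nerve) had a log2 change of 1.10, Agtpbp1 (25 and 21, 10 and 12) of 1.27, Atrnl1 of 0.76, Vps13a (16 and 13, 15 and 12) of 0.32 and Rere (15 and 32, 34 and 27) of -0.17. None of the 9 hosts with at least 12 circRNAs passed the test, where only 2.3% of all 434 hosts tested did.

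At the level of single circRNAs, 5 of the 16 had at least 5 reads in at least 2 libraries and could be tested. These were C, E, I, J and N, with 180 of the 247 reads. None of the 5 passed the edgeR quasi-likelihood test, where 51 of all 428 circRNAs tested did (11.9%). None of the 5 had an unadjusted p under 0.05 either, against 27.8% of all circRNAs tested. None passed with DESeq2, which gave no adjusted p for circAsh1l-J and called 6.54% of all circRNAs. circAsh1l-E had a log2 change of -1.10 ± 0.65 (SE; 95% interval -2.77 to 0.56; adjusted p = 0.376, edgeR). The change of circAsh1l-C was 0.75 ± 0.56 (interval -0.69 to 2.19; adjusted p = 0.479, edgeR), opposite in sign to that of circAsh1l-E although both use the same start. For circAsh1l-I it was 0.17 ± 0.42, for circAsh1l-N 0.31 ± 0.52 and for circAsh1l-J 0.72 ± 1.47, with adjusted p from 0.811 to 0.870 (edgeR). Sham replicate 1 weighed on circAsh1l-C, whose change was 0.16 without it and 1.36 without sham replicate 2. The intervals of circAsh1l-C and -E reach past a log2 of 2 in size, so at this depth changes of that size lay inside the error.

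A usage test (edgeR's diffSpliceDGE) compared the change of each tested circRNA with that of the other tested circRNAs of its host. It also called none of the 5, each with adjusted p = 0.998. Over these 5 together the host had adjusted p = 0.722 (edgeR) among 52 hosts with at least 2 tested circRNAs. Of the 120 circRNAs in this test 0 passed (0%), and 6 had an unadjusted p under 0.05.

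Reads of the main start were divided differently over its 4 ends in crush and in sham libraries. Of the reads from the start at 188269009, the nearest end (circAsh1l-C) took 52.2% (95% exact Clopper-Pearson interval 30.6% to 73.2%) and 57.1% (37.2% to 75.5%) in crush nerve. After sham it took 21.4% (8.30% to 41.0%) and 38.2% (22.2% to 56.4%). The 2 farthest ends (circAsh1l-E and -F) together took 26.1% (10.2% to 48.4%) and 28.6% (13.2% to 48.7%) in crush nerve, or 6 and 8 reads. After sham they took 67.9% (47.6% to 84.1%) and 50.0% (32.4% to 67.6%), or 19 and 17 reads. The crush and sham libraries did not overlap in either case, but the interval of each sham library overlapped those of both crush libraries. The middle end (circAsh1l-D) took 21.7% and 14.3% in crush nerve and 10.7% and 11.8% in sham nerve. Taken alone, the 2 farthest ends separated the groups by less than their sum. circAsh1l-E took 13.0% and 21.4% in crush nerve and 53.6% and 23.5% in sham nerve. For circAsh1l-F the shares were 13.0% and 7.14% in crush nerve and 14.3% and 26.5% in sham nerve. Sham replicate 1 was thus the high library for circAsh1l-E, and sham replicate 2 for circAsh1l-F. This grouping of ends was chosen after the values were seen, so it is a description without a test. The usage test above did not call circAsh1l-C or -E, but it cannot decide on this split. It left out circAsh1l-D and -F, and it compared circAsh1l-C and -E with circRNAs of other starts as well.

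**Figure D4:**
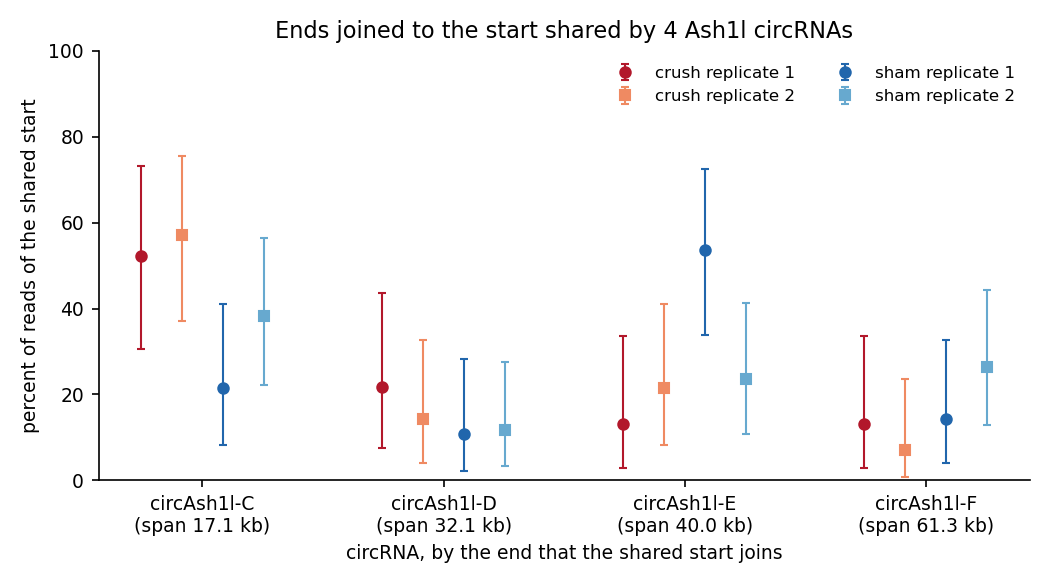
Percent of the junction reads of the start at the origin of circAsh1l-C, -D, -E and -F that joined each of its 4 ends (vertical axis), by circRNA in order of span (horizontal axis) and by library, with bars for 95% exact Clopper-Pearson intervals. C lies higher in both crush libraries (52.2% and 57.1%) than in both sham libraries, and sham replicate 1 stands apart in E at 53.6%.

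The main end at 188309036 also had shares of circAsh1l-I and -E that lay apart between the groups, by smaller amounts. Of its reads, circAsh1l-I with its start 8013 bases away took 52.4% and 68.4% in crush nerve and 45.5% and 50.0% in sham nerve. circAsh1l-E with its start 40027 bases away took 14.3% and 31.6% in crush nerve and 45.5% and 40.0% in sham nerve. Again the groups did not overlap, though for circAsh1l-I the nearest values were 52.4% in crush nerve and 50.0% in sham nerve. Since circAsh1l-E enters both comparisons, they are not separate observations. These shares are a description without a test. The usage test above did not call circAsh1l-I or -E, but it left out circAsh1l-A, -H and -K and so cannot decide on this split.

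Weighted by reads, the circRNAs of Ash1l spanned less of the genome in crush than in sham libraries. The weighted mean span of its exonic circRNAs was 18161 and 20146 bases in crush nerve and 25462 and 27298 in sham nerve, or 19153 ± 1404 against 26380 ± 1298 (SD, n = 2). Exonic circRNAs of all other hosts also had lower values in crush nerve, at 12116 and 12444 bases against 15458 and 14650 in sham nerve. The exact permutation p was 0.333 for each measure, the smallest these 2 against 2 libraries can give. Of the reads of Ash1l, 22.4% and 32.4% in crush nerve and 46.9% and 43.9% in sham nerve came from its 7 circRNAs with a span over 20 kb. Unlike the values for other hosts below, these count intronic circRNAs, with circAsh1l-A and -B (2 reads each) among the 7. Among exonic circRNAs of other hosts that share was 18.4% and 20.1% in crush nerve and 24.5% and 24.5% in sham nerve. Ash1l and the other hosts thus differed between the groups in the same direction, and whether the difference is larger in Ash1l was not tested. Marker reads of leukocytes and muscle moved between the same libraries, and their part in the span was not tested.

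**Figure D5:**
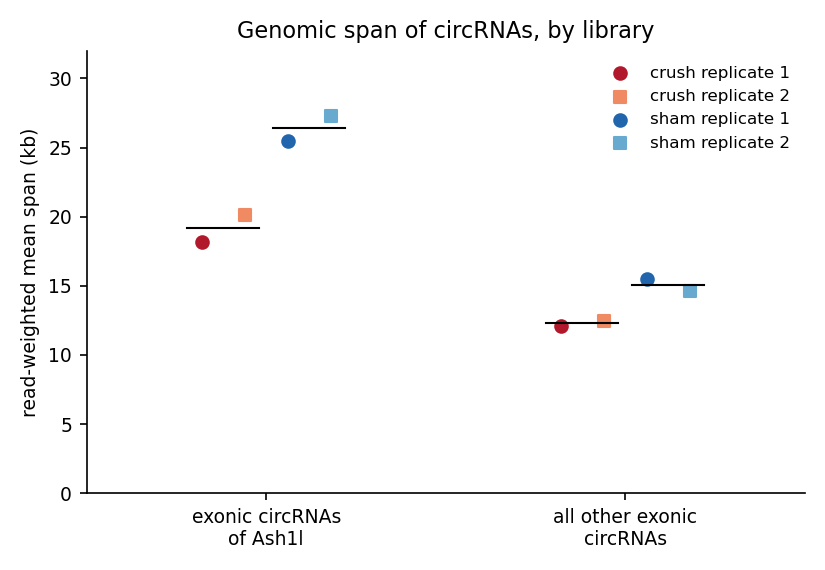
Read-weighted mean span in kilobases (vertical axis) of the exonic circRNAs of Ash1l and of the exonic circRNAs of all other hosts, with 1 point per library and a line at the mean of the 2 libraries of a group. Both crush points lie below both sham points in either set, at 18161 and 20146 bases for Ash1l in crush nerve.

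Each of the other genes of histone lysine methylation on the lists gave fewer junction reads than Ash1l. Of 36 histone lysine methyltransferase genes on the list, Ash1l among them, 12 were hosts in this nerve and 3 were tested, and 0 passed (2.3% of all hosts tested). Of the 3 tested, 1 had an unadjusted p under 0.05, against 25.6% of all hosts tested, and DESeq2 called 0, against 7.37%. Kmt2e, whose product also has a SET domain, had 36 and 28 reads in crush nerve and 11 and 40 in sham nerve, with a log2 change of 0.52 ± 0.66 (adjusted p = 0.671, edgeR). Its 2 sham libraries were the lowest and the highest of the 4. Dot1l, a methyltransferase gene for a lysine in the core of histone H3, had 11 and 12 reads in crush nerve and 0 and 2 in sham nerve, and its fitted log2 change of 3.56 ± 1.07 missed the threshold (adjusted p = 0.0858, edgeR). Under a filter of at least 10 reads in 2 libraries Dot1l passed (adjusted p = 0.0493, edgeR), as did 23.4% of all hosts then tested. Without sham replicate 2 both passed, Dot1l with adjusted p = 0.0151 and Kmt2e with adjusted p = 0.0371 (edgeR), as did 24.3% of all hosts then tested. That fit has a single sham library, assumed to vary like the 2 crush libraries. The median log2 change of the 3, Ash1l included, was 0.52, against 0.11 over all hosts.

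The remaining 9 methyltransferase hosts were too sparse to test, with 2 to 14 reads each over the 4 libraries. Setd5 led with 3 and 6 reads in crush nerve and 3 and 2 in sham nerve, followed by Ehmt1, a methyltransferase gene of silent chromatin, with 5 and 3 in crush nerve and 2 and 0 in sham nerve. Nsd1, whose product acts on the same histone lysine as ASH1L, had 0 and 2 in crush nerve and 2 and 5 in sham nerve. Setd2, the main trimethylase of that lysine, was not listed as a host. Without Ash1l, the list summed to 55 and 57 reads in crush nerve and 24 and 58 in sham nerve. In every library Ash1l held more reads than Kmt2e, the member next in total.

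Genes tied to the ASH1L mark were sparse as well. Of 9 genes for partners of ASH1L and readers of its mark, only Morf4l1, a subunit of the ASH1L complex, with 3 reads, and Mtf2, a Polycomb-like protein gene, with 2, were hosts, and neither could be tested. Of 24 histone lysine demethylase genes, 12 were hosts, 3 were tested and 0 passed, where 2.3% of all hosts tested did. Among them Kdm5a, a demethylase gene for a mark of active promoters, had 20 and 12 reads in crush nerve and 9 and 5 in sham nerve, and Jmjd1c had 12 and 6 in crush nerve and 0 in both sham libraries. Kdm6a, whose product removes the Polycomb mark, had 0 and 2 in crush nerve and 10 and 7 in sham nerve. Of 23 Polycomb genes 3 were hosts and only Asxl1 was tested, with 7 and 9 reads in crush nerve and 0 and 3 in sham nerve, and it did not pass.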

How the data were processed

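Per the file headers, the authors deposited raw counts of back-splice junction reads for each circRNA and library, with SRPBM beside them, a signal that equalled the count times 1 constant per library. The deposited span equals end minus start. Tools listed in the submitters' processing notes are CASAVA 1.8, BWA and edgeR, with the build Rnor_6.0, and no roles. For the circRNA caller, the name is not given in the sources used.

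Groups came from the labels. The counts were tested with edgeR 4.0.16 (quasi-likelihood, TMM, two-sided) in R 4.3.3, over all circRNAs or host sums with at least 5 reads in at least 2 libraries, with Benjamini-Hochberg adjusted p under 0.05 as a call. Usage within hosts was tested with diffSpliceDGE. DESeq2 1.42.0 was an alternative. The edgeR tests of circRNAs, hosts and usage were checked on simulated counts, and the other tests were not. Those counts varied less than these data, where the common dispersion was 0.232 over circRNAs and 0.207 over hosts. That check therefore does not show how the tests perform at the spread seen here. Log2 CPM used a prior count of 2. SciPy 1.17.1 gave exact permutation tests and Clopper-Pearson intervals, which cover counting error only.

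Named were all Ash1l circRNAs, hosts with at least 12 circRNAs, the 4 hosts nearest in pattern and tested members of the methyltransferase list. Genes named beside these were chosen after their values were seen. Members and lists were chosen with earlier results of these data known.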

Additional observations from a re-analysis of the deposited data

How the results depend on the processing

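No alternative made the Ash1l host sum or a tested Ash1l circRNA pass, and over 11 alternatives the adjusted p of the host ran from 0.571 to 0.902 (edgeR or DESeq2). With SRPBM totals the log2 changes turned to -0.14 for the host, -0.26 for circAsh1l-I and -0.095 for circAsh1l-N. With the replicate number as a block, circAsh1l-J turned to -0.11 and the Ash1l host stayed at 0.27 (adjusted p = 0.708, edgeR). The labels do not say that the numbers pair libraries, whose deviations correlated at -0.11 over circRNAs and -0.06 over hosts. With 1 library left out, circAsh1l-C ran from 0.16 to 1.36 and circAsh1l-E from -1.56 to -0.67. Over the 2 fits that could test it, circAsh1l-J ran from 0.12 to 1.73. The ranges were -0.16 to 0.32 for circAsh1l-I, -0.025 to 0.74 for circAsh1l-N and -0.33 to 1.72 for Kmt2e. The top circRNA's crush mean share was 19.0% or 19.1% while circAsh1l-I was on top. Without sham replicate 1 the top circRNA was circAsh1l-C, whose crush mean was 22.1%. Over circRNAs called in at least 2 libraries the crush mean of circAsh1l-I was 21.4%. With at least 10 reads required 1 methyltransferase host passed. The Ash1l share of exonic reads was 0.929% in crush nerve and 0.888% in sham nerve. With at least 5 reads, a mean of 5 circRNAs was called in both groups.

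The number of features tested changed with the filter, so calls are given with their share. Of 428 circRNAs tested, 51 passed in the main fit (11.9%). DESeq2 called 28 (6.54%), DESeq2 size factors 60 (14.0%), SRPBM totals 59 (13.8%) and the block 0. With at least 10 reads, 23 of 165 circRNAs passed (13.9%). Of 434 hosts tested, 10 passed in the main fit (2.3%). DESeq2 called 32 hosts (7.37%) and the block 24 (5.53%). Without a filter 39 of 2327 hosts passed (1.68%), and with at least 10 reads 44 of 188 (23.4%). A crossed pairing, added after seeing the data, called 0 of both. The causes of these differences between settings were not tested. Depth limits these results: 11 of the 16 circRNAs had too few reads to test.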
